A study of Homo sapiens with 4 samples.

Results

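The human reference keeps some assembled pieces apart from the chromosomes. A contig named "random" was assigned to a chromosome but not to a position on it, and a contig named "chrUn" was assigned to none. Peaks of open chromatin on these contigs were taken from the lists of both conditions by sequence name (names that start with chrUn_ or end in _random). They numbered 1104 of the 194551 peaks listed with vehicle (0.567%) and 1171 of the 163735 listed with GSK2879552 (0.715%). The vehicle peaks lay on 59 contigs. Of these, 32 carried at least 10 vehicle peaks, and together they held 983 vehicle and 1045 GSK2879552 peaks. They are described one by one below, 24 of them unplaced and 8 random.

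The measurement was ATAC-seq, in which the Tn5 transposase cuts accessible DNA and leaves sequencing adapters there. The cells were LNCaP, an established androgen-sensitive line from a human prostate cancer. They were given vehicle or GSK2879552, an inhibitor of LSD1 (KDM1A), the demethylase that removes methyl groups from lysine 4 of histone H3. The protocol text, which is the same for all samples, gives 50 µM for 4 hours in RPMI1640 with 5% CSS, after maintenance in medium with 10% FBS. Each condition had 2 lanes, labelled as technical replicates, and 1 list. So there was 1 library per condition, no test between conditions was possible, and every interval below covers counting error only.

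Contigs stay unplaced mostly because their sequence is repeated elsewhere, as in satellite arrays, segmental duplications and ribosomal DNA. Where the genome holds more copies of a sequence than the reference does, reads from all copies pile up on the few that are listed. Ribosomal DNA is the extreme case: its tandem units on the short arms of the acrocentric chromosomes are transcribed by RNA polymerase I in the nucleolus, and chrUn_gl000220 is the contig known to carry such units. No repeat annotation and no sequence of the hg19 build were used here, so repeat content is read only from the local background, the tags that the peak caller expected around a peak. Positions are 1-based hg19 positions on each contig. The sources used here do not say how reads with several matching places were treated, and this bears on every contig.

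Chromosomes 1 to 22, X and Y (the main chromosomes) had fewer listed peaks with GSK2879552 than with vehicle, and the contigs had similar numbers with both. On the main chromosomes the GSK2879552 list held 0.842 peaks per vehicle peak. On the contigs it held 1.06 (exact binomial interval 0.976 to 1.15), an interval that includes 1 and lies above the ratio of the main chromosomes. It takes the peaks of both lists as independent counts, though 821 vehicle and 852 GSK2879552 contig peaks overlapped the other list. With only peaks at a −log10 q of 5 or more, the direction on contigs turned to 0.933 (0.843 to 1.03), still above the 0.705 of the main chromosomes. Of the 32 contigs, 18 had more peaks with GSK2879552, 11 had fewer and 3 had equal numbers. The covered length was 268 kb with vehicle and 264 kb with GSK2879552. Widths were also nearer to each other than on the main chromosomes: the median was 165 bp with vehicle and 160 bp with GSK2879552 on contigs, against 189 bp and 171 bp.

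**Figure D1:**
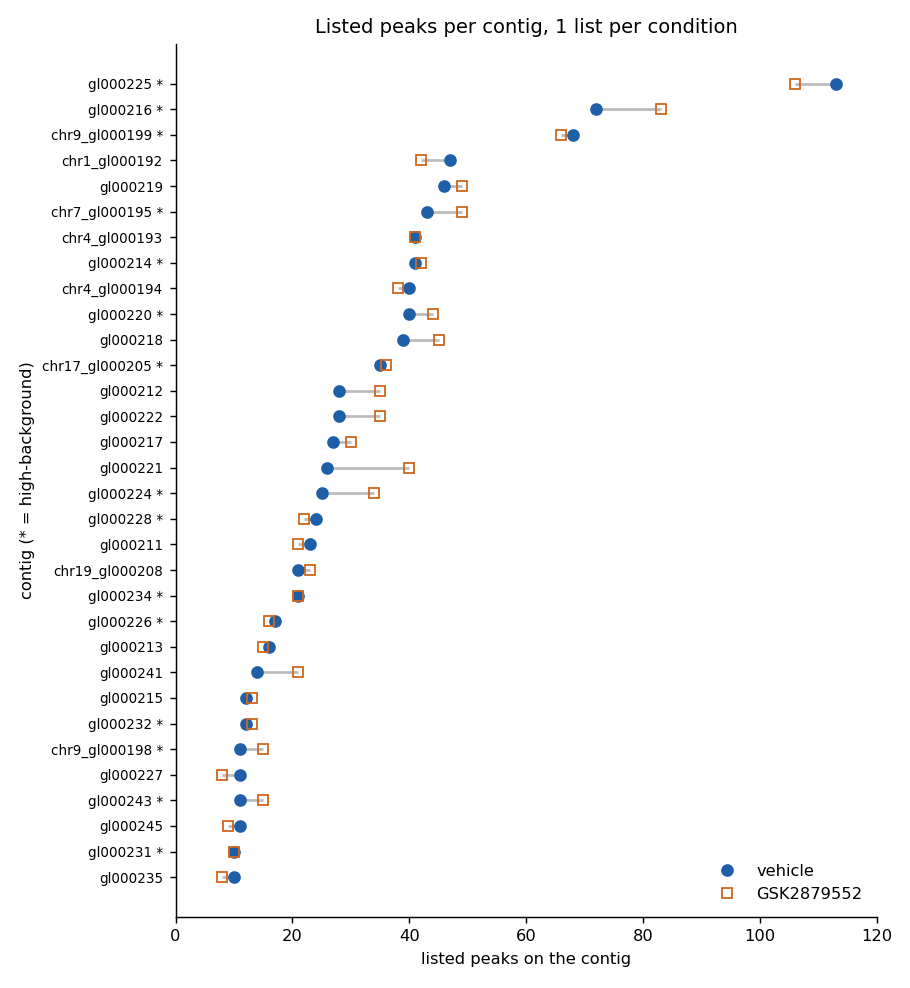
Number of listed peaks (horizontal axis) on each of the 32 contigs with at least 10 vehicle peaks, ordered by the vehicle number; filled circles are vehicle, open squares GSK2879552, and a star marks a contig of high local background. The numbers run from 113 and 106 on gl000225 to 10 and 8 on gl000235, and the widest gap is on gl000221, with 26 against 40.

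Local background set the contigs apart from the main chromosomes. Its median at vehicle peaks was 6.42 tags on contigs and 2.64 tags on the main chromosomes, where the genome-wide level, the lowest the caller used, was 2.31. Only 122 vehicle contig peaks, 11.1%, stood at that level, against 40.3% on the main chromosomes. The authors' fold enrichment, which is relative to that background, was lower on contigs: its median was 3.65 (interquartile range 2.88 to 5.07) against 5.44 on the main chromosomes within the vehicle list. Within the GSK2879552 list it was 3.41 (2.72 to 4.32) against 4.34. Tags at the summit went the other way, with a vehicle median of 31 on contigs and 22 on the main chromosomes. A summit over a higher background needs more tags to be listed, so this order is not independent of the background. Of the 32 contigs, 30 had a median vehicle fold below that of the main chromosomes. In 22 of the 30 the median of tags was above the main chromosomes' and in 8 it was at or below it, as on gl000241 with a fold of 3.48 and 20 tags.

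The 32 contigs were divided by their median vehicle background. In 15 it was at least 3 times the genome-wide level, and these are called high-background contigs. The last one inside was chr9_gl000198 at 6.94 tags and the first one outside chr4_gl000193 at 5.83 tags, 2.52 times that level. Median folds with vehicle ran from 1.91 to 3.83 in the high-background contigs and from 3.23 to 6.18 in the other 17. Across the 32 contigs the median background and the median fold had a Spearman rho of -0.92, given as a description only, since both come from the same library and the background is the divisor of the fold. Over all peaks of each class the vehicle medians were 49 tags over 13.6 in the high-background contigs and 22 tags over 3.85 in the other contigs. Here too the tags needed for listing rise with the background.

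**Figure D2:**
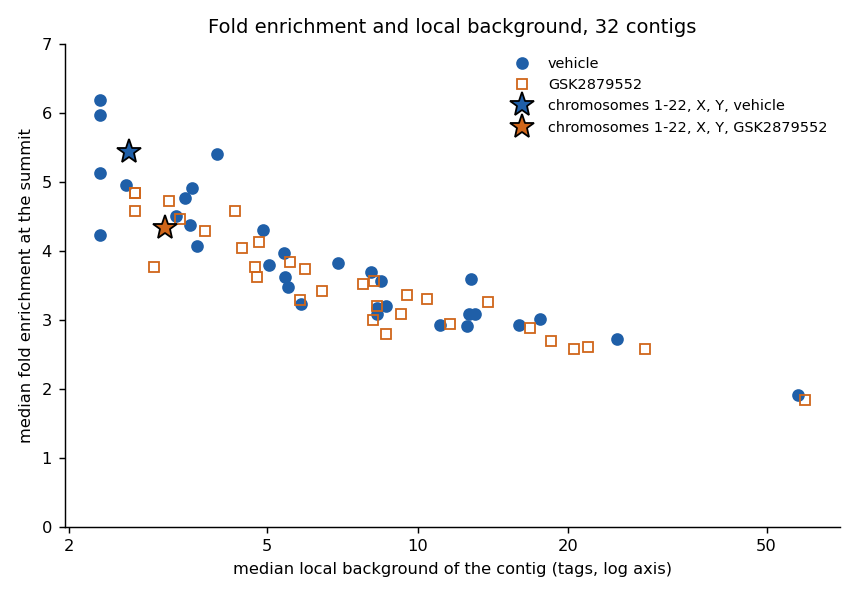
Median fold enrichment at the summit (vertical axis) against median local background in tags (horizontal log axis) for the 32 contigs, with vehicle as filled circles and GSK2879552 as open squares, and the main chromosomes as stars. The point farthest right is gl000226, at 57.7 tags and a fold of 1.91 with vehicle; the main chromosomes stand at 2.64 tags and 5.44.

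The ribosomal DNA contig gl000220 held 40 vehicle and 44 GSK2879552 peaks, in a stretch of lower and a stretch of very high background. Up to position 97868, 31 vehicle peaks stood over a median background of 8.97 tags with a median fold of 3.38. From position 102244 on, 9 vehicle peaks stood over 73.1 to 130 tags. These 9 had 113 to 179 tags at the summit, but folds of only 1.36 to 1.72. The GSK2879552 list had 27 peaks in the first stretch, with a median fold of 3.16, and 17 in the second, with folds of 1.33 to 1.98. Several of the 17 overlapped the same wide vehicle peak, as given below. No peak of gl000220 stood at the genome-wide background in either list.

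The 5 contig peaks with most tags were on gl000220 in both lists. With vehicle they were 148469 to 150960 with 179 tags, 104193 to 106992 with 178 tags, 158060 to 158351 with 177 tags, 158419 to 158748 with 167 tags and 134314 to 134433 with 166 tags. With GSK2879552 the highest was 150787 to 150921, also with 179 tags over a background of 129. The highest possible number would be 200 if the caller kept 1 tag per position and strand and extended each over 100 bp, the smallest listed width. No summit of either list exceeded 199. This limit was inferred from the values, and summits close to it cannot be read as equal amounts.

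Of the 3 widest vehicle peaks of gl000220, 2 were spaced similarly in both lists, a feature chosen after its values were seen. The vehicle peak at 104193 to 106992 was 2800 bp wide, and the one at 148469 to 150960 was 2492 bp wide. Their ends lay 43968 bp apart. In the GSK2879552 list the same stretches ended at 106964 and 150921, which is 43957 bp apart. The starts lay 44276 bp apart with vehicle and 44635 bp with GSK2879552. This is about the length of a human ribosomal DNA unit. With GSK2879552 the first was listed as 2 peaks and the second as 5 peaks, so they do not enter the pairs used for tag ratios. The remaining wide peak, at 159170 to 161747, was 2578 bp wide and had 164 tags over 94.9. It too was listed as 2 peaks with GSK2879552 and does not enter the pairs. No peak was listed for 27321 bp after the first wide peak with vehicle and for 30716 bp with GSK2879552. The vehicle summits on either side stood over backgrounds of 117.5 and 108.8 tags.

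**Figure D3:**
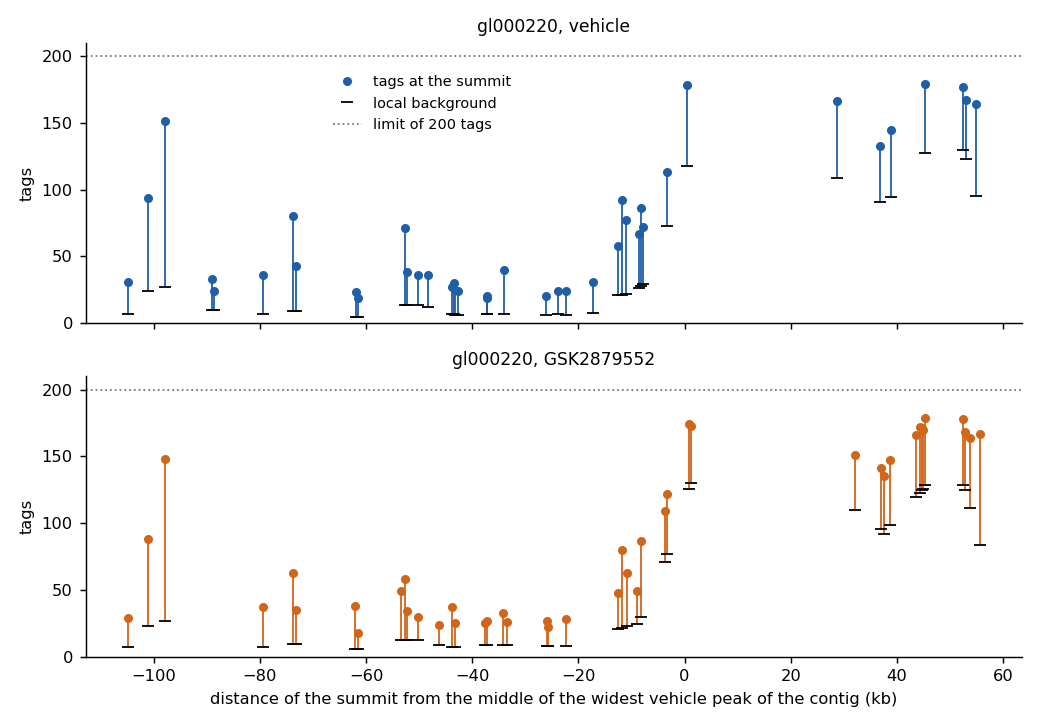
Tags at each listed summit of gl000220 (points) and the local background under it (black bars), in tags on the vertical axis, against the distance in kb from the middle of the widest vehicle peak; the upper panel is vehicle and the lower GSK2879552, and the dotted line marks 200 tags. In the left stretch the vehicle background stays at or below 29.6 tags, and in the right stretch it runs up to 130 tags and the summits reach 179.

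The highest median background of any contig with at least 10 vehicle peaks was on gl000226, at 57.7 tags with vehicle and 59.7 with GSK2879552. Its 17 vehicle peaks carried 101 to 123 tags, a narrow range, and peaks covered 28.8% of the stretch between the first and the last. The folds were 1.43 to 2.69. They were highest near both ends of the contig, where the first peak (57 to 220) had 101 tags over 39.1 and the last (14199 to 14968) had 115 tags over 42.2. In the middle, the peak at 5981 to 6092 had 123 tags over 80.8. Of the vehicle peaks 94.1% (71.3 to 99.9) overlapped a GSK2879552 peak, and all 16 GSK2879552 peaks overlapped a vehicle peak. The background is averaged over a window around the peak; whether the nearness of the contig's ends bears on these folds was not tested.

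Most peaks of any contig were on gl000225, 113 with vehicle and 106 with GSK2879552. They were narrow, with median widths of 147 and 138 bp, and had median folds of 2.73 and 2.58 over backgrounds of 25.1 and 28.5 tags. The next contig, gl000216, had 72 and 83 peaks, median widths of 142.5 and 145 bp, and folds of 3.59 and 3.26. On chr9_gl000199 there were 68 and 66 peaks with the narrowest pair of medians among these 3, 135 and 135.5 bp. Its folds were 2.93 and 2.70. These 3 contigs held the most peaks, and none of their vehicle peaks exceeded 115 tags. Of their vehicle peaks, 82.3% (74.0 to 88.8) on gl000225, 91.7% (82.7 to 96.9) on gl000216 and 77.9% (66.2 to 87.1) on chr9_gl000199 overlapped a GSK2879552 peak. In the other direction the shares were 87.7% (79.9 to 93.3), 80.7% (70.6 to 88.6) and 78.8% (67.0 to 87.9).

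Single very wide peaks marked chr7_gl000195 and chr17_gl000205. The widest vehicle peak of any contig was on chr17_gl000205, at 84740 to 87822, with 159 tags over 51.6. The next was on chr7_gl000195, at 30376 to 33332, with 159 tags over 45.6. Both were also listed with GSK2879552, at 2222 and 2926 bp, with 144 and 149 tags. The rest of these contigs was moderate: chr7_gl000195 had 43 and 49 peaks with median folds of 3.69 and 3.20, and chr17_gl000205 had 35 and 36 peaks with 3.56 and 3.51. A vehicle peak began at the first base of chr7_gl000195 (849 bp wide, 80 tags) and of chr19_gl000208 (499 bp, 56 tags), so these peaks are cut by the contig's start.

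Among the other high-background contigs, gl000214 had 41 and 42 peaks, with a vehicle median of 74 tags and a median fold of 2.92. On gl000224 the number was 25 with vehicle and 34 with GSK2879552 while the median width went from 260 to 174 bp. The share of its peaks in the other list was 84.0% (63.9 to 95.5) with vehicle and 61.8% (43.6 to 77.8) with GSK2879552. With only peaks at a −log10 q of 5 or more, gl000224 had 19 and 20 peaks, with shares of 89.5% and 85.0%. The opposite order of widths was seen on gl000228, with 24 and 22 peaks of 158 and 222.5 bp. Equal numbers, 21 and 21, were listed on gl000234 and 10 and 10 on gl000231. There were 12 and 13 peaks on gl000232 and 11 and 15 on both gl000243 and chr9_gl000198. On gl000243 the vehicle median was 52 tags over 17.6, on chr9_gl000198 27 tags over 6.94. With this few peaks, the intervals of the shares span 39.0 to 94.0% on chr9_gl000198 and 48.2 to 97.7% on gl000243 with vehicle, and no order among these small contigs can be read from them.

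The other 17 contigs were nearer to the main chromosomes in fold, though in 13 of them the median background was still above the genome-wide level. The largest was chr1_gl000192, with 47 and 42 peaks, median widths of 179 and 160 bp and folds of 4.96 and 4.72 over 2.60 and 3.18 tags. On gl000219 there were 46 and 49 peaks with folds of 3.97 and 3.74, and on gl000218 39 and 45 peaks with 3.63 and 3.29. The pair assigned to chromosome 4 was alike: chr4_gl000193 had 41 and 41 peaks with folds of 3.23 and 2.99, and chr4_gl000194 40 and 38 peaks with 3.80 and 3.83. The highest median folds with vehicle were 6.18 on gl000213 (16 and 15 peaks), 5.97 on gl000215 (12 and 13) and 5.40 on gl000212 (28 and 35). Both gl000213 and gl000215 had a median background at the genome-wide level.

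Several of these contigs had more GSK2879552 peaks. On gl000221 there were 26 and 40, and the share of the 40 that a vehicle peak overlapped was 50.0% (33.8 to 66.2), while 73.1% (52.2 to 88.4) of the 26 had a partner. On gl000241 there were 14 and 21 peaks, of which 52.4% (29.8 to 74.3) of those with GSK2879552 were shared. The contig gl000222 had 28 and 35 peaks and gl000217 had 27 and 30. Shares with GSK2879552 were 62.9% (44.9 to 78.5) on gl000222 and 53.3% (34.3 to 71.7) on gl000217. With only peaks at a −log10 q of 5 or more, gl000221 had 18 and 17 peaks, of which 66.7% and 70.6% were shared. At that level there were 15 and 14 on gl000217, 7 and 10 on gl000241 and 19 and 22 on gl000222. With all peaks, fewer were listed with GSK2879552 on gl000211 (23 and 21 peaks, folds of 4.50 and 4.58), gl000245 (11 and 9), gl000227 (11 and 8) and gl000235 (10 and 8). With 21 and 23 peaks, chr19_gl000208 had folds of 4.90 and 4.13 and the highest vehicle share of the 17, 85.7% (63.7 to 97.0).

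The threshold of 10 vehicle peaks is arbitrary. Just inside were gl000231 and gl000235 with 10 each, and just outside gl000223 and gl000240 with 9 each, which had 7 GSK2879552 peaks each. The contigs under the threshold held 121 vehicle and 126 GSK2879552 peaks in all. Their median vehicle fold was 4.37 and their vehicle share 67.8% (58.7 to 76.0). Among them gl000223 held the folds next to the highest among vehicle contig peaks, 16.3 at 68102 to 68921 and 15.9 at 119226 to 120011, after 16.7 on chr1_gl000191 at 49823 to 50419. The number on gl000239 was 7 with vehicle and 14 with GSK2879552.

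Of the vehicle contig peaks 821, or 74.4% (71.7 to 76.9), had a GSK2879552 partner at 1 bp of overlap or more, against 61.5% on the main chromosomes. Of the GSK2879552 contig peaks 852, or 72.8% (70.1 to 75.3), overlapped a vehicle peak, against 76.5% on the main chromosomes. So 283 contig peaks were listed with vehicle only and 319 with GSK2879552 only. The order of the 2 contig shares depends on the lists. With only peaks at a −log10 q of 5 or more, 72.9% (69.6 to 76.0) of vehicle and 80.0% (76.9 to 82.8) of GSK2879552 contig peaks were shared, against 63.2% and 92.7% on the main chromosomes. With lists of equal length they were 79.4% (76.6 to 81.9) and 64.7% (61.9 to 67.5), against 69.3% and 72.8%. In 28 of the 32 contigs the vehicle share was above that of the main chromosomes, and in 7 its whole interval was: gl000225, gl000216, chr9_gl000199, gl000224, chr19_gl000208, gl000234 and gl000226. In the GSK2879552 list the interval lay below the main chromosomes on 3 contigs, gl000221, gl000241 and gl000217, and above them on gl000225 and gl000226. High-background contigs were shared more often than the other 17: 79.7% (76.1 to 83.0) against 69.5% (65.0 to 73.8) with vehicle, and 78.0% (74.3 to 81.3) against 67.2% (62.8 to 71.4) with GSK2879552. The intervals of the classes do not overlap in either list. With the class set at 2 times the genome-wide background they do in the GSK2879552 list, at 73.7% (70.5 to 76.7) and 71.1% (64.9 to 76.8). Vehicle peaks covered 2.61 to 28.8% of the span between the first and the last peak in the high-background contigs. In the other 17 they covered 2.07 to 10.2%. How far the density of peaks bears on any of these shares, also beside the main chromosomes, was not tested.

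The strongest contig peaks without a partner stood over backgrounds of 2.31 to 3.94 tags with vehicle and of 4.20 to 27.8 tags with GSK2879552. With vehicle the first was on chr1_gl000192, at 222428 to 222591, with 29 tags over 2.31, and the nearest GSK2879552 peak lay 1944 bp away. It was followed by gl000248 at 5642 to 5813 with 27 tags, gl000212 at 68952 to 69102 with 32 tags, chr1_gl000192 at 321161 to 321329 with 25 tags and gl000245 at 32272 to 32423 with 30 tags. With GSK2879552 the first was on gl000241, at 23079 to 23244, with 33 tags over 4.20 and a vehicle peak 3497 bp away. Next were gl000223 at 151593 to 151712 with 31 tags and gl000241 at 40544 to 40780 with 40 tags. The last 2 were on gl000216, at 163962 to 164066 with 75 tags over 27.8 and at 66544 to 66675 with 34 tags. None of the 10 was on gl000220, though 10 of its vehicle and 8 of its GSK2879552 peaks had no partner. A ranking by −log10 p does not show how often peaks of a contig lacked one. The tags that the other library had at the positions of the 10 ranked peaks are not given by its list.

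Where a contig peak overlapped exactly 1 peak of the other list, and that peak no further one, tags at both summits were compared. The 751 such pairs held 35048 tags with vehicle and 35298 with GSK2879552, an unscaled ratio of 1.01. The GSK2879552 library was 1.18 times as deep by its genome-wide background, and scaling by this gave 0.857 (exact binomial interval 0.844 to 0.869). The direction on contigs thus rests on the scaling. The distance to the main chromosomes does not: their 110134 pairs had an unscaled ratio of 0.803 and a scaled one of 0.683, both lower than on contigs. More scaled tags with GSK2879552 were found in 172 of the 751 contig pairs (22.9%), against 5.83% on the main chromosomes. Without scaling it was 404 pairs (53.8%), against 12.8%. Alternative haplotypes, which also lie outside the main chromosomes, stood at 0.636 (0.624 to 0.648), below the main chromosomes. Chromosome Y lay between the main chromosomes and the contigs at 0.807 (0.792 to 0.822). Its median vehicle background was 2.31 tags, with 60.5% of its vehicle peaks at the genome-wide level.

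All 15 high-background contigs, and 11 of the other 17, had an interval of the scaled ratio above 0.683. No contig had an interval below it. In 31 of the 32 contigs the scaled ratio was below 1, and in 23 its interval was, but without scaling 17 of the 32 were above 1. The lowest ratios were 0.599 (0.482 to 0.743) on gl000227 from 5 pairs, 0.675 (0.609 to 0.748) on chr1_gl000192, 0.676 (0.547 to 0.835) on gl000215 from 7 pairs and 0.722 (0.610 to 0.853) on gl000213. Their median vehicle backgrounds were low, 2.31 or 2.60 tags, but gl000217, also at 2.31 tags, had a ratio of 0.817 (0.693 to 0.963). The highest ratios were 1.06 (0.878 to 1.29) on gl000231, 0.961 (0.908 to 1.02) on chr9_gl000199 and 0.950 (0.783 to 1.15) on gl000241. The last of these is not firm: it was 0.777 when only peaks with a −log10 q of 5 or more were kept, and 0.611 from the 1 of its 9 pairs that reached 60 tags. The contigs with most peaks, gl000225 and gl000216, were at 0.899 (0.868 to 0.930) and 0.925 (0.883 to 0.969). Neighbours in this order mostly have intervals that overlap. Summed by class, the ratio was 0.884 (0.869 to 0.900) in the high-background contigs and 0.803 (0.779 to 0.828) in the other 17. Across the 32 contigs the median vehicle background and the scaled ratio had a Spearman rho of 0.62, a description, since both rest on the same vehicle library.

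**Figure D4:**
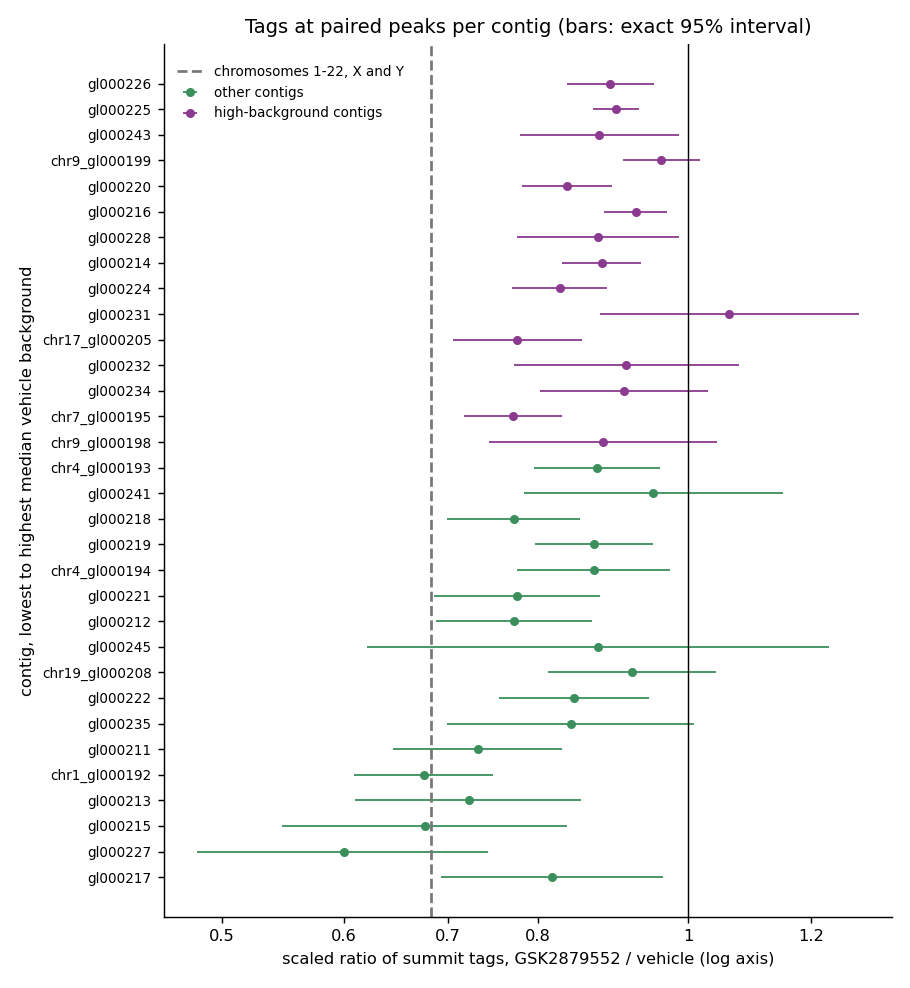
Scaled ratio of summit tags, GSK2879552 to vehicle, summed over paired peaks of each contig (horizontal log axis, bars are exact 95% binomial intervals), with contigs ordered from the lowest median vehicle background at the bottom to the highest at the top. The dashed line marks 0.683, the ratio of the main chromosomes; all high-background contigs lie to its right, and 3 of the other contigs, gl000227, chr1_gl000192 and gl000215, lie to its left.

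The ribosomal DNA contig lay within the range of the high-background contigs in this ratio. Its 24 pairs gave 0.835 (0.781 to 0.894), and the high-background contigs without it gave 0.888 (0.872 to 0.905). The 19 pairs in its stretch of lower background gave 0.806 (0.737 to 0.882) and the 5 pairs in the stretch of very high background 0.875 (0.789 to 0.970). Corrected for the limit of 200 tags these were 0.789 and 0.892. Close to that limit the unscaled ratio is drawn towards 1, so little can be read from the 5 pairs. The background under the pairs of gl000220 had a scaled ratio of 0.876, where it was 0.952 over all contig pairs. That ratio was 0.880 in the 19 pairs of lower background, above their 0.806 at the summits, and 0.875 in the other 5. The vehicle share of gl000220, 75.0% (58.8 to 87.3), and its GSK2879552 share, 81.8% (67.3 to 91.8), were also within the range of its class. The latter depends on the overlap rule and the list: it was 56.8% with a reciprocal overlap of 50% and with lists of equal length, 59.1% with summits within 250 bp and 94.4% (of 18 peaks) at a −log10 q of 5 or more.

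At equal local background the contigs mostly kept the higher ratio. At the genome-wide background the scaled ratio was 0.748 (0.686 to 0.815) on contigs and 0.672 (0.670 to 0.675) on the main chromosomes. At a background of 7 to 12 tags it was 0.844 (0.814 to 0.874) against 0.707 (0.704 to 0.709), and at 20 to 40 tags 0.895 (0.871 to 0.920) against 0.822 (0.810 to 0.834). Above 40 tags the order turned, with 0.870 (0.832 to 0.910) from 34 contig pairs and 0.917 (0.887 to 0.948) from 63 pairs of the main chromosomes, and these intervals overlap. Weighted to the same classes of background and of tags per pair, the main chromosomes had 0.760 where the contigs had 0.857; the thinnest class rested on 22 pairs of the main chromosomes. The same weighting gave 0.788 beside 0.884 for the high-background contigs and 0.699 beside 0.803 for the other 17. Pairs with under 30 tags over both lists lie near the listing threshold, where a pair exists only if both summits passed it, and there contigs (0.918, 0.810 to 1.04) and main chromosomes (0.865, 0.859 to 0.872) did not differ beyond counting error.

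Sharing at equal background differed from the main chromosomes mainly in the GSK2879552 list, as read from the intervals. With the GSK2879552 background divided by the depth ratio, 64.3% (58.7 to 69.6) of GSK2879552 contig peaks at 4 to 7 tags overlapped a vehicle peak, against 89.9% (89.6 to 90.3) on the main chromosomes. At 7 to 12 tags it was 77.8% (71.3 to 83.4) against 95.2% (94.7 to 95.6). In the vehicle list at the same classes, the contig shares of 75.0% (69.3 to 80.1) and 76.6% (69.8 to 82.5) had intervals that included the 76.4% and 81.7% of the main chromosomes. Within a class the peaks also differ in tags and width (at 4 to 7 tags the median width of GSK2879552 peaks was 160 bp on contigs and 228.5 bp on the main chromosomes), and the part of this in the shares was not tested.

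**Figure D5:**
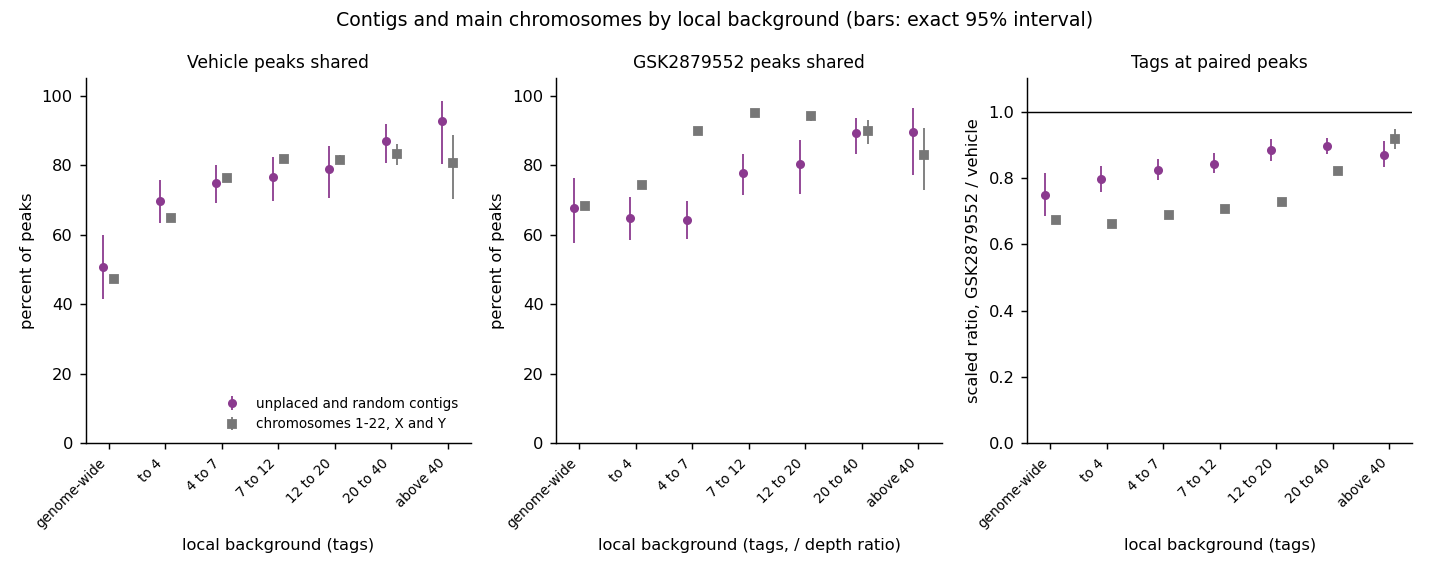
Share of vehicle peaks (left) and of GSK2879552 peaks (middle, background divided by the depth ratio) that overlap the other list, in percent, and scaled tag ratio of paired peaks (right), by class of local background in tags; circles are contigs, squares the main chromosomes, and bars are exact 95% intervals. The contigs lie above the main chromosomes in the right panel up to 40 tags, and below them in the middle panel from above the genome-wide level up to 20 tags, with 64.3% against 89.9% at 4 to 7 tags.

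Random contigs could be set beside the chromosome they are assigned to. The 8 random contigs with at least 10 vehicle peaks had scaled ratios from 0.675 to 0.961, where their 6 chromosomes had 0.681 to 0.699. On chr1_gl000192 and chromosome 1 the values were close, 0.675 (0.609 to 0.748) and 0.681. On chr9_gl000199 the ratio was 0.961 (0.908 to 1.02), and chromosome 9 was at 0.686. The contig chr9_gl000198 of the same chromosome was at 0.882 (0.744 to 1.04). Values for chr4_gl000193 and chr4_gl000194 were 0.873 (0.796 to 0.959) and 0.869 (0.775 to 0.974), against 0.684 on chromosome 4. Median vehicle background was 15.9 tags on chr9_gl000199 and 2.71 on chromosome 9, but 2.60 on chr1_gl000192 and 2.89 on chromosome 1. On chr19_gl000208 the median was 3.53 tags, and chromosome 19 was at 4.97. The ratio of that contig was 0.920 (0.812 to 1.04) from 15 pairs, where chromosome 19 had 0.699. How far background bears on these ratios was not tested. Random contigs as a whole (0.834, 0.809 to 0.859) and unplaced contigs (0.864, 0.850 to 0.879) had intervals that overlap.

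Single pairs whose summits summed to 60 tags or more ranged widely. The lowest scaled ratio, 0.367 (0.212 to 0.616), was on chr1_gl000192 at 71368 to 71714, where 51 vehicle tags stood against 22. Then came chr7_gl000195 at 146220 to 146548 with 0.483 (0.283 to 0.807) and gl000215 at 84510 to 84740 with 0.496 (0.300 to 0.807). The highest was 1.63 (0.962 to 2.82) on gl000214 at 23320 to 23837, where 23 tags stood against 44. It was followed by gl000216 at 22118 to 22235 with 1.45 (0.904 to 2.35) and gl000220 at 43339 to 43957 with 1.41 (0.816 to 2.47), whose background of 4.86 tags was the lowest of that contig. The intervals of the 3 highest pairs include 1. Of 473 such pairs 82, or 17.3%, had a scaled ratio above 1, against 1.14% of 48512 pairs on the main chromosomes. Since these 6 were picked for their ratios, their distance from the others is in part counting error.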

How the data were processed

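Peak lists of the 2 conditions, 1 each, were used; the labels of both lanes of a condition name its list, so each was taken to pool them. Per the submitters' processing notes, which give no roles, MACS2 2.1.2, BWA 0.7.2 and SAMtools 0.1.18 are named with the build hg19 (GRCh37). The sources used here do not say how duplicates, reads matching several places and the transposase offset were treated. The deposited lists give per peak a score (not used in any value), a fold enrichment ratio, a −log10 p, a −log10 q (at least 1.31 and 1.30) and a summit offset.

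Fold and −log10 p gave whole summit tags and background for 100% of peaks of both lists (tolerance 0.001), by fold as tags over background, each with 1 added, and p as the Poisson probability of more tags; this was tested on simulated data. The ratio of the genome-wide backgrounds (2.31 and 2.72 tags), 1.18, scaled depth, since no totals of reads were used here. Shares have exact Clopper-Pearson 95% intervals and tag ratios exact conditional binomial ones, for counting error only. Neighbouring peaks can share tags, and repeated sequences can share reads.

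Contigs with at least 10 vehicle peaks were all named. Single peaks named were, per list, the 5 with most tags and the 5 strongest by −log10 p without a partner, and the 3 highest and 3 lowest ratios among pairs of at least 60 tags. The widest peaks, the highest folds, the stretches of gl000220, the course of gl000226 and the classes of background and tags were chosen after the values were seen. The members, classes and tests were chosen with earlier results of these data known. Alternatives were other overlap rules, only peaks with a −log10 q of 5 or more, and the vehicle list cut to the length of the other. Further ones were no scaling, background subtracted, a correction for the limit of 200 tags and pairs of at least 60 tags. Other background thresholds and leaving out gl000220 were also used. Main chromosome numbers and shares under the overlap, −log10 q and equal-length alternatives were added after seeing the data, as was the correction within gl000220. No main chromosome ratio is given with the background subtracted or corrected for the limit. Python 3.11.15, NumPy 2.4.6, pandas 2.3.3, SciPy 1.17.1 and Matplotlib 3.10.9 were used.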

Additional observations from a re-analysis of the deposited data

How the results depend on the processing

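No paired analysis was possible because each condition had 1 library whose lanes are technical replicates, and for the same reason no replicate could be left out. For the values that moved, the cause was not tested. The vehicle share on contigs, 74.4%, was 64.4% with a reciprocal overlap of 50% and 79.4% with lists of equal length; the GSK2879552 share, 72.8%, was 60.7% and 64.7% under these, 70.0% with summits within 250 bp and 80.0% when only peaks with a −log10 q of 5 or more were kept, where the vehicle share was 72.9%, so that the order of both shares turned between these alternatives. At that level 740 GSK2879552 contig peaks were left, 0.933 per vehicle peak. Lists of equal length gave 1.28 (1.17 to 1.40) per vehicle peak in place of 1.06, since only the vehicle list was shortened. The tag ratio of contig pairs, 0.857, was 1.01 without scaling and 0.820 with the background subtracted, and it was 0.858 both without gl000220 and after a correction for the limit of 200 tags. Without scaling, 9 contigs whose interval lay below 1 turned: gl000225 (1.06), gl000216 (1.09), gl000219 (1.02), chr4_gl000193 (1.03), gl000214 (1.03), chr4_gl000194 (1.02), gl000228 (1.03), gl000226 (1.05) and gl000243 (1.03). With high background set at 2 times the genome-wide level, the ratio of the other contigs was 0.768 and the GSK2879552 share of the high-background contigs 73.7%, against 71.1% in the others, so the gap in that share was then within counting error. At 5 times, the ratio of the high-background contigs was 0.901 and their GSK2879552 share 81.7%. The high-background contigs kept the higher ratio and the higher vehicle share in all 3 alternatives to the class. The number of peaks limits the shares of single contigs: with 10 vehicle peaks, gl000231 has an interval of 34.8 to 93.3%.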
